A study of Mus musculus with 2 samples.

Results

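The T cell receptor complex and its proximal signalling genes were followed in normal mouse colon and in chemically induced colon adenomas. The group was set by name as 9 genes, Cd3d, Cd3e, Cd3g, Cd247, Cd4, Cd8a, Lck, Zap70 and Lat, and all 9 were found among the 35529 genes of the expression table. Total RNA came from colon of C57BL/6 wild-type mice without treatment (the control pool) and from adenomas in the colon of C57BL/6 wild-type mice treated with AOM (azoxymethane, which mutates DNA in the colon) and DSS (dextran sodium sulfate, which damages its epithelium), called the adenoma pool. RNA of 6 individuals was pooled per group and each pool was sequenced once, so there was 1 library per group, no replicate check and no test between conditions. The labels give no age, sex, dose or time after treatment.

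Levels are RPKM, reads per kilobase of gene length scaled to the read total. Comparisons between the pools carry a trend over transcript length and unequal sums of RPKM, both described further on. Comparisons between genes rest on gene lengths that the sources used here do not give. The read totals behind them were 29548883 for control and 33174626 for adenoma. The 95% intervals given below cover counting error only, not differences between animals or library preparations. The colon markers Car1, Slc26a3 and Muc2 were all detected, with a sum of 747 RPKM in control and 216 in adenoma. The 7 T cell markers Cd3d, Cd3e, Cd3g, Cd2, Cd5, Thy1 and Trac were above 0 in both pools, with sums of 23.6 and 38.4 RPKM. The table mixes all cells of a tissue, so more or fewer T cells and more or less RNA per T cell cannot be told apart.

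The receptor on a T cell binds a peptide held by a major histocompatibility complex (MHC) molecule through its variable chains, which cannot signal by themselves. The signal passes to the associated CD3 chains (Cd3d, Cd3e, Cd3g) and to the zeta chain (Cd247), whose tails are phosphorylated by the kinase Lck. Lck is carried to the receptor by the coreceptors CD4, which binds MHC class II, and CD8, which binds MHC class I. The kinase Zap70 then docks on the phosphorylated tails and phosphorylates the membrane adaptor Lat, on which the downstream enzymes assemble. In the colon such cells lie both between the epithelial cells and in the tissue beneath them.

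The 3 CD3 genes lie side by side on chromosome 9 of the mouse genome. Their promoters are shown because the 3 genes differed in how far the pools stood apart, and a link between promoter letters and levels was not tested. In the GENCODE M21 annotation of GRCm38, which is not the authors' annotation, Cd3g runs from 44969572 to 44980431 on the minus strand, Cd3d from 44981786 to 44987339 on the plus strand and Cd3e from 44998740 to 45009627 on the minus strand. Cd3g and Cd3d point away from each other with 1355 bases between their starts. Zap70 lies on chromosome 1 from 36761798 to 36782818 on the plus strand and is shown as the member with the widest difference between the pools. The 250 bases before a RefSeq start site (GRCm38.p6) are printed 5′ to 3′ on the gene's own strand, from chr9:44980432-44980681 (minus) for Cd3g, chr9:44981536-44981785 (plus) for Cd3d, chr9:45009612-45009861 (minus) for Cd3e and chr1:36761548-36761797 (plus) for Zap70. Capitals mark matches, on either strand, to the ETS motif AGGAAG, the RUNX motif TGTGGT, the TCF/LEF motif CTTTGA, the GATA motif AGATAA or the cyclic AMP response element TGACGTCA.
Cd3g: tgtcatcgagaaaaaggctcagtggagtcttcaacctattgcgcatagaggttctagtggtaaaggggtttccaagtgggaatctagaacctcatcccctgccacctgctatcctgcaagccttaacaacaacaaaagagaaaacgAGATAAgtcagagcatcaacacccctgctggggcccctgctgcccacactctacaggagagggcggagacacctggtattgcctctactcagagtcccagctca
Cd3d: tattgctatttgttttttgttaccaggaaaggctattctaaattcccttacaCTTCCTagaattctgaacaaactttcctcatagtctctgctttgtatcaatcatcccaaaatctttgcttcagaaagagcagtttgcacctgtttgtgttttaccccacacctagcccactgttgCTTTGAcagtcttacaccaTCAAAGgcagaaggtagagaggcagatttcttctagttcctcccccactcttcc
Cd3e: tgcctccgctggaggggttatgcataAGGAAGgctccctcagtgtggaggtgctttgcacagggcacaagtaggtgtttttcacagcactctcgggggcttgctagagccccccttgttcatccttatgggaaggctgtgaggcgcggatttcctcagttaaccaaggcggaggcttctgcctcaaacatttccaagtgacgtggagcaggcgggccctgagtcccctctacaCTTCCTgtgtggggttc
Zap70: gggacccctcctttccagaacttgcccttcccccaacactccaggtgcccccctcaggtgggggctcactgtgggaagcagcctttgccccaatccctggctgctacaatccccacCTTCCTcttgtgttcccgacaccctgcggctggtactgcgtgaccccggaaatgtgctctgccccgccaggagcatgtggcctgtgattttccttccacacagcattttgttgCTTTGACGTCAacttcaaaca

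The promoters of the CD3 neighbours did not hold the same matches. Cd3g held 1 GATA match, Cd3d held 1 ETS and 2 TCF/LEF matches, and Cd3e held 2 ETS matches. Zap70 held 1 ETS match and, close to the start, a TCF/LEF match that overlaps a cyclic AMP response element. Of the 32851 windows of 250 bases in the promoter table, 29.5% held the ETS motif, 14.0% the RUNX motif, 13.8% the TCF/LEF motif, 9.99% the GATA motif and 1.55% the cyclic AMP response element. Windows were found for 8 of the 9 genes, the exception being Cd4. Zap70 had 3 windows and Lck 2, and only 1 of each was read, so matches before their other starts are not counted. Among the genes not printed, Cd247 and Lat held 1 ETS match each, Lck 3 ETS matches and 1 RUNX match, and the Cd8a window none of the 5 motifs. A match describes the letters and is no evidence that a factor binds there.

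The 9 genes did not move as a block between the pools. Zap70, Cd3d, Cd3g, Cd247, Lck and Lat were higher in the adenoma pool with intervals above a ratio of 1. Cd3e had the same level in both pools within counting error, and Cd4 and Cd8a were lower in the adenoma pool with intervals below 1. After adjustment for transcript length, described further on, Lat at -0.12 and Cd4 at -0.18 on the log2 scale lay near the overall mRNA median of -0.17. The summed level of the 9 genes was 15.8 RPKM in control and 38.7 in adenoma, and without Zap70 it was 14.7 and 28.5. These sums rested on about 958 and 2338 reads.

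**Figure D1:**
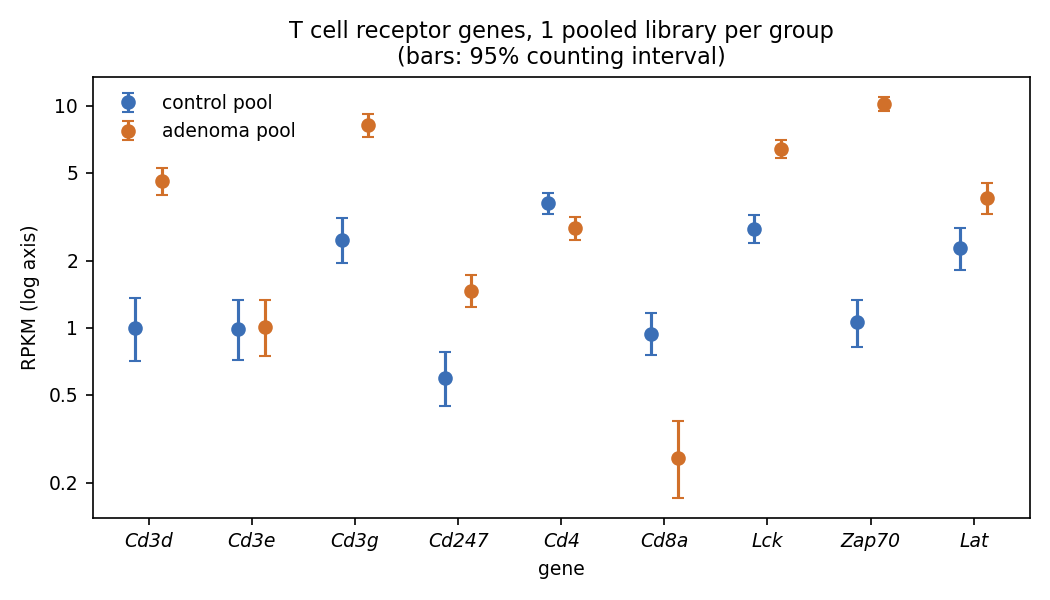
RPKM (log axis) of each of the 9 genes in the control pool and the adenoma pool, 1 pooled library each, with bars for the 95% counting interval. The intervals of the pools are apart for Zap70, Cd3d, Cd3g, Cd247, Lck and Lat, which are higher in the adenoma pool, and for Cd8a and Cd4, which are lower; those of Cd3e overlap.

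Among the signal-transducing chains, Cd3d stood at 0.992 RPKM in control and 4.56 in adenoma, from 39 and 201 reads. The adenoma pool was 4.59-fold higher (95% interval 3.24 to 6.65). Cd3g, which like Cd3d pairs with Cd3e in the complex, stood at 2.48 and 8.18 RPKM, 3.29-fold higher (2.54 to 4.30). Its values corresponded to 75.1 and 277.5 reads with a length of 1023 bases, and no length tried made them whole.

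Cd3e, the chain found in both CD3 pairs, stood at 0.990 RPKM in control and 1.01 in adenoma, a ratio of 1.02 (0.659 to 1.58). This corresponded to 42 and 48 reads. The nearly equal levels of Cd3d and Cd3e in the control pool, a ratio of 1.0, stood against a ratio of 4.52 in the adenoma pool, and Cd3g over Cd3e went from 2.51 to 8.12. Cd247, the zeta chain, stood at 0.595 and 1.47 RPKM from 52 and 144 reads, 2.47-fold higher (1.78 to 3.46). Cd247 overlaps Pou2f1 in the RefSeq annotation, and no source used here gives the strand of the reads, so reads in the shared stretch cannot be assigned with certainty. Pou2f1 itself was lower in the adenoma pool, at 1.15 and 0.485 RPKM, though at 0.08 on the log2 scale after the length adjustment described further on.

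The coreceptors went the other way. Cd4 was the most abundant of the 9 genes in the control pool, with 3.64 RPKM there and 2.80 in adenoma, from 333 and 288 reads, 1.30-fold lower (1.11 to 1.53). Cd8a, the alpha chain of CD8, stood at 0.941 and 0.260 RPKM from 87 and 27 reads, 3.62-fold lower (2.33 to 5.80), the widest difference downward among the 9. The ratio of Cd4 to Cd8a was 3.87 in control and 10.8 in adenoma. Cd8b1, the beta chain of CD8 and the gene next to Cd8a on chromosome 6, did not share the difference, at 0.538 and 0.596 RPKM. In mice Cd4 is also made by some macrophages and dendritic cells, and CD8 alpha chains without a beta chain are found on many lymphocytes of the gut epithelium and on some dendritic cells.

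Of the kinases, Lck stood at 2.79 RPKM in control and 6.37 in adenoma, from 179 and 459 reads, 2.28-fold higher (1.92 to 2.73). Zap70 stood at 1.06 and 10.2 RPKM, from 68 and 737 reads, 9.65-fold higher (7.52 to 12.6), and its interval lay above that of each of the other 8 genes. Zap70 went from 0.378 times the level of Lck in control to 1.60 times in adenoma, and from 1.07 times the level of Cd3e to 10.1 times. The adaptor Lat stood at 2.27 and 3.83 RPKM from 83 and 157 reads, 1.68-fold higher (1.28 to 2.23).

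**Figure D2:**
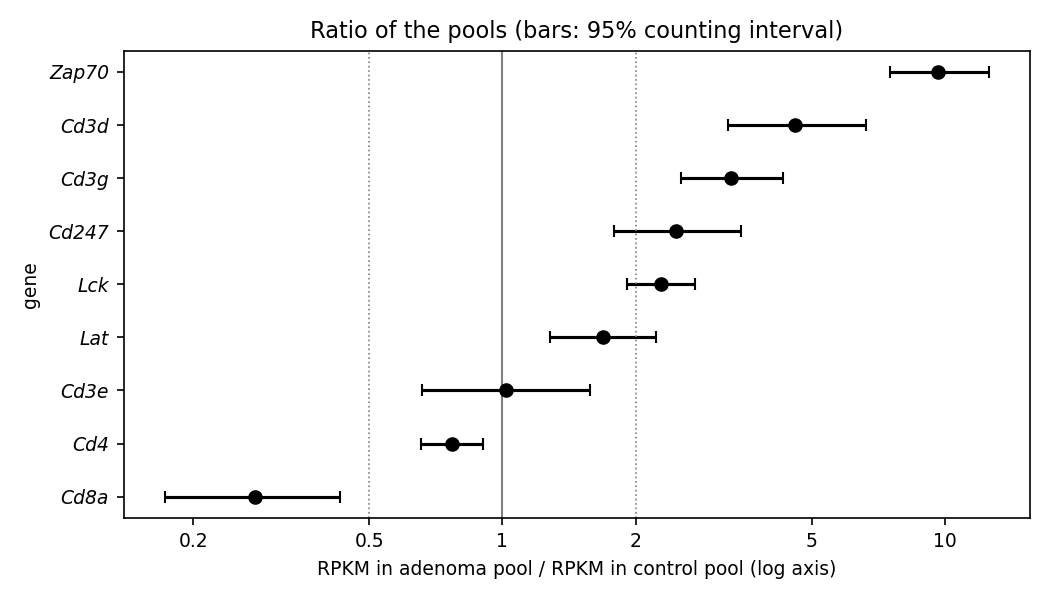
Ratio of the RPKM in the adenoma pool to that in the control pool (log axis) for each gene, ordered by ratio, with bars for the 95% counting interval; the solid line marks equal levels and the dotted lines 2-fold either way. Zap70 stands apart at 9.65, Cd3e sits at 1.02 and Cd8a is the lowest.

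The order of the genes by level differed between the pools. In the control pool it was Cd4, Lck, Cd3g, Lat, Zap70, Cd3d, Cd3e, Cd8a and Cd247. Only the steps from Cd4 to Lck and from Lat to Zap70 exceeded the counting intervals of neighbours in that order. In the adenoma pool it was Zap70, Cd3g, Lck, Cd3d, Lat, Cd4, Cd247, Cd3e and Cd8a, and of the neighbours only Cd3d with Lat and Cd247 with Cd3e had overlapping intervals. Zap70 made up 6.70% of the summed level of the 9 genes in control and 26.4% in adenoma, and Cd4 23.1% and 7.25%. All 9 were of low to middling abundance: in the adenoma pool Zap70 was above 73.6% of the genes with a value above 0, and Cd8a above 23.8%.

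For comparison with all genes, each RPKM was raised by 1 and the log2 of the ratio, adenoma over control, was used for the 16517 genes reaching 1 RPKM in one pool or the other, a scale that understates differences of low genes. Of the 9 genes, 8 passed that filter. Cd8a, at 0.941 RPKM in control, did not. Cd3d, Cd3e and Cd247 passed only through the adenoma pool, which favours counts of higher genes. At least 2-fold higher on this scale were 3 of the 8, Zap70 at 2.44, Cd3d at 1.48 and Cd3g at 1.40, where 14.0% of all genes and 10.4% of the mRNA genes were. At least 2-fold lower were 0 of the 8, against 11.0% of all genes and 13.1% of the mRNA genes. Just under 2-fold stood Lck at 0.96, followed by Cd247 at 0.63, Lat at 0.56, Cd3e at 0.01 and Cd4 at -0.29, and Cd8a outside the filter was at -0.62. The median of the 8 was 0.79, that of all 9 was 0.63 and that of all genes past the filter -0.02. The value of Zap70 exceeded those of 98.9% of the genes past the filter, that of Cd3d 94.4%, that of Cd3g 93.3% and that of Lck 85.2%, while Cd3e lay at 51.3% and Cd4 at 37.8%. With a pseudocount of 0.1 RPKM, Cd247 at 1.17 and Lck at 1.16 joined the 3 higher genes, where 18.2% of all genes were higher and 17.3% lower. Cd8a, still outside the filter, was then at -1.53, past 2-fold lower. Without the filter, over the 26390 genes above 0 in a pool, 3 of the 9 were higher and 0 lower, against 8.78% and 6.85%. At a 1.5-fold threshold 5 of the 8 were higher and 0 lower, against 25.7% and 24.6% of all genes, and at 4-fold 1 and 0, against 2.02% and 1.08%.

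Transcript length moved with the difference between the pools over the whole table. Among mRNA genes in 20 bins of length the median difference went from 0.88 on the log2 scale in the bin of the shortest transcripts to -0.79 in that of the longest. The 9 genes have different lengths, the values themselves pointing to 1330 bases for Cd3d, 1436 for Cd3e, 2171 for Lck, 2180 for Zap70, 3095 for Cd4 and 3130 for Cd8a. The lengths of Cd3g (1023), Lat (1235) and Cd247 (2957) used here are those of their longest coding GENCODE transcripts, and for Lat and Cd247 these gave whole reads in both pools. The adjustment used the longest coding GENCODE transcript of each gene, which for Cd3d is 1617 bases and not 1330. After the median at each length was subtracted and the overall mRNA median of -0.17 was added back, Zap70 stood at 2.31 and Cd3d at 1.03. The median was 0.25 in the bin around 1663 bases, 0.37 in that around 1436 and 0.55 in that around 1186. With 1330 bases Cd3d would thus fall under 2-fold. Cd3g went to 0.55, Lck to 0.80, Cd247 to 0.67, Lat to -0.12, Cd3e to -0.51, Cd4 to -0.18 and Cd8a to -0.51. At least 2-fold higher were then 2 of the 8 genes past the filter (Cd3d only with 1617 bases) and lower 0, against 5.12% and 11.0% of all genes with a length. Lat was thus near other genes of its length, and Zap70, Lck and Cd247 moved little with the adjustment. Cd3d and Cd3e, which are of similar length, stayed apart.

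**Figure D3:**
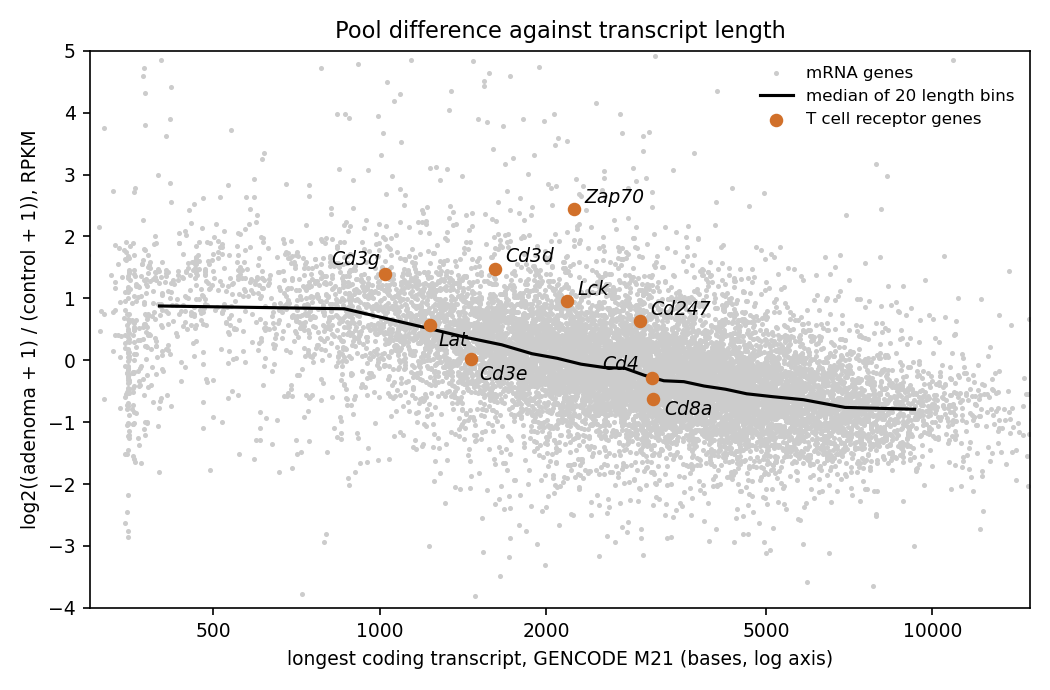
Difference between the pools on the log2(RPKM + 1) scale against the longest coding GENCODE transcript (log axis) for mRNA genes past the filter (grey, points beyond the axes left out), with the median of 20 length bins (line) and the 9 genes (orange). Zap70, Cd3d, Cd3g, Lck and Cd247 lie above the line, Lat and Cd4 lie near it, and Cd3e and Cd8a lie under it.

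The scale of the columns also bears on directions. Summed over genes, RPKM were higher in adenoma than in control, and multiplying the adenoma values by 0.759 to equal sums lowered the median of all genes by 0.32 on the log2 scale. With that factor 3 of the 8 genes were still at least 2-fold higher, Zap70 at 2.09, Cd3d at 1.16 and Cd3g at 1.05, against 7.31% of all genes, and 0 were lower, against 19.1%. Cd3e turned from 0.01 to -0.17.

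The variable part of the receptor was represented by its constant-region genes. The beta chain genes Trbc1 and Trbc2 stood at 2.24 and 3.65 RPKM in control and at 8.77 and 16.7 in adenoma, 3.91-fold (2.85 to 5.45) and 4.57-fold (3.54 to 5.91) higher, but they are near-identical copies and their reads cannot be divided with certainty. The length adjustment took them from 1.59 to 0.58 and from 1.93 to 0.91 on the log2 scale. Trac, the alpha chain, stood at 2.40 and 3.09 RPKM, a ratio of 1.29 (0.937 to 1.80), and at -0.67 on the log2 scale after length adjustment. The delta chain Trdc stood at 0.549 and 0.651 RPKM. The gamma chain Tcrg-C1 stood at 0.0327 and 0.946 RPKM, from about 0.892 and 29.0 reads, and at -0.03 on the log2 scale after length adjustment. The gamma chain Tcrg-C4 stood at 0.168 and 0.0704 RPKM, from about 4.89 and 2.30 reads, a ratio of 0.419 whose interval (0.0339 to 2.18) holds 1. Ptcra, the alpha chain of the immature receptor of the thymus, was listed at 0 in both pools, and Tcrg-C2 was not found. The beta chain genes thus stood nearer to Cd3d and Cd3g, and Trac nearer to Cd3e.

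Genes acting after Zap70 and Lat were mostly within 2-fold. Of 22 genes of signalling downstream of the receptor, 15 passed the filter and 0 were at least 2-fold higher or lower, against 14.0% and 11.0% of all genes. Their median was -0.28. After length adjustment the median turned to 0.13 and 1 gene, Prkcq, was past 2-fold higher, against 5.12% of all genes with a length. The most abundant, the NF-kappaB adaptor Bcl10, stood at 32.6 and 25.1 RPKM. Chosen after its values were seen, the kinase Prkcq, which links the receptor to NF-kappaB, stood at 0.541 and 2.04 RPKM (log2 value 0.98, and 1.16 after length adjustment). Lcp2, the adaptor that joins Lat, stood at 1.45 and 1.66 RPKM, with no difference like that of Zap70.

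Negative regulators of the receptor were mostly lower in the adenoma pool, 11 of 15 to any extent and without regard to length. Of all genes past the filter 50.8% were lower to any extent. Of 15 genes 12 passed the filter, 3 were lower by 2-fold or more and 0 were higher, against 11.0% and 14.0% of all genes. The median was -0.48. After length adjustment 1 of the 3 was still lower by 2-fold or more, Dgka, against 11.0% of all genes with a length, and the median was -0.15. The ubiquitin ligase Cbl stood at 6.27 and 1.46 RPKM (-1.56 on the log2 scale, -0.94 after adjustment) and the diacylglycerol kinase Dgka at 50.0 and 17.3, while the most abundant by the mean of both pools, Dgkz, stood at 38.5 and 29.1. Over all 15 genes 4 were higher to any extent, among them, chosen after their values were seen, the adaptors Sla2 at 24.1 and 39.6 RPKM, 1.64-fold higher (1.55 to 1.73), and Dok1 at 6.27 and 10.2, 1.62-fold higher (1.41 to 1.86). Most of the 15 genes act in many cell types.

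Costimulatory and inhibitory receptors of T cells depended on the filter and on length. Of 17 genes 9 passed the filter, 6 of them only through the adenoma pool. Higher by 2-fold or more were 3 and lower 0, against 14.0% and 11.0% of all genes, and the median was 0.72. The median of all 17 genes was 0.33. After length adjustment 1 of the 9 was past 2-fold higher, Tnfrsf9, against 5.12% of all genes with a length, and the median of the 9 was 0.33. The activation-induced receptor Tnfrsf9 stood at 0.587 and 5.03 RPKM, 8.57-fold higher (6.10 to 12.4), which is near the ratio of Zap70, and Tnfrsf4 at 0.762 and 2.98 (0.33 on the log2 scale after adjustment). The most abundant, the adhesion receptor Cd2, stood at 3.93 and 7.11 RPKM, and at -0.03 on the log2 scale after length adjustment.

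Regulators of T cell identity went both ways. Of 14 genes 8 passed the filter, 2 were higher by 2-fold or more, 1 was lower, and the median was -0.32 (the counts were the same after length adjustment and the median was -0.08). The Wnt-responsive factors Tcf7 and Lef1 stood at 4.96 and 13.3 RPKM and at 0.275 and 1.57. Over the 5 lists together, 47 of 76 genes passed the filter, 7 were higher by 2-fold or more, 4 were lower, the median was -0.04, and with the columns at equal sums 3 were higher and 7 lower. The shares of 14.0% and 11.0% over all genes are near those of these lists before such changes. Over all genes the shares were 7.31% and 19.1% at equal sums, and 5.12% and 11.0% after length adjustment.

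**Figure D4:**
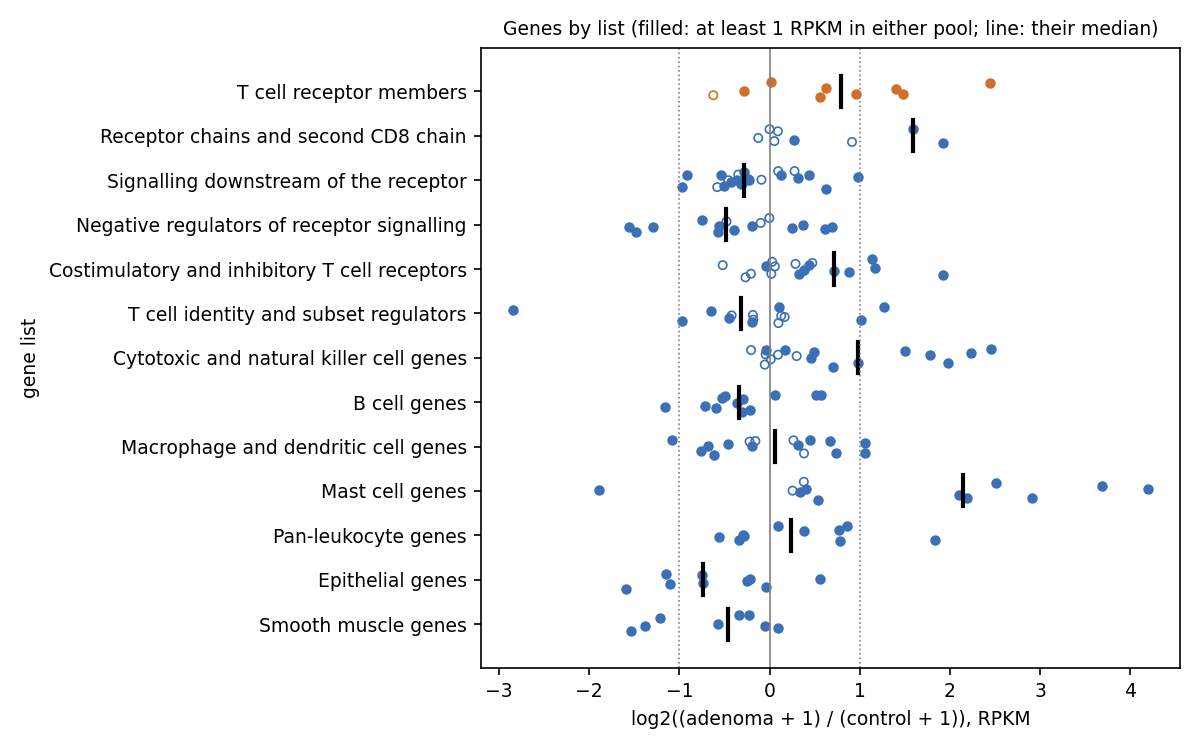
Difference between the pools on the log2(RPKM + 1) scale for the genes of each list; filled points passed the filter, open points do not, the black line is the median of the filled points and the dotted lines are 2-fold either way. The 9 receptor genes (orange) spread from -0.62 for Cd8a to 2.44 for Zap70, and the genes of signalling downstream of the receptor stay within 2-fold.

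Other leukocytes also carry some of the 9 genes: natural killer cells have Zap70, Lck, Lat and Cd247, and mast cells have Lat. Of 17 cytotoxic and natural killer cell genes 11 passed the filter, 4 of them only through the adenoma pool, which favours counts of higher genes. Higher by 2-fold or more were 5 and lower 0, against 14.0% and 11.0% of all genes. The sum of the 17 went from 65.7 to 200.4 RPKM. After length adjustment 3 were higher and 1 was lower, against 5.12% and 11.0% of all genes with a length. The most abundant was the adaptor Tyrobp, shared with myeloid cells, at 23.5 and 114 RPKM. The granzyme Gzmc stood at 0.0362 and 4.68 RPKM, from 1 and 145 reads, a ratio of 129 (22.8 to 5136). The 5 natural killer cell markers Ncr1, Klrb1c, Klrd1, Gzma and Nkg7 summed to 4.76 and 14.2 RPKM. Most of that difference was Gzma, a granzyme also made by T cells, at 2.12 and 9.68 RPKM, while Klrb1c was lower at 0.219 and 0.0573, and Ncr1, found on natural killer cells and some innate lymphoid cells, was near 0 in both at 0.0925 and 0.103. Of 12 mast cell genes 10 passed, 5 of them only through the adenoma pool. Higher were 6 and lower 1, with or without length adjustment, beside the same shares of all genes. The sum of the 12 went from 19.5 to 115 RPKM. The 4 defining mast cell markers Cpa3, Fcer1a, Ms4a2 and Tpsb2 summed to 0.609 and 16.4. Mcpt2, a mast cell protease, was the most abundant at 1.39 and 42.8 RPKM, its relative Mcpt1 stood at 1.96 and 36.9, and the receptor Kit, which is not limited to mast cells, was the lower one at 6.99 and 1.15. None of the markers of either cell type was at 0 in either pool. The part of these cells in the values of Zap70, Lck, Cd247 and Lat was not tested.

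The remaining lists differed to unlike extents. The epithelial and smooth muscle medians were -0.73 and -0.46, and after length adjustment -0.99 and -0.79. Those of the cytotoxic and mast cell lists were 0.98 and 2.15, and after adjustment 0.41 and 1.44. Beside the counts below, 14.0% of all genes were higher and 11.0% lower by 2-fold or more. After length adjustment these shares were 5.12% and 11.0%. Of 12 B cell genes all passed, 0 were higher and 1 was lower by 2-fold or more, Syk, the relative of Zap70 that acts in B cells and many other cells, at 19.8 and 8.29 RPKM. Their most abundant gene was Blnk at 37.1 and 30.1 RPKM. Of 16 macrophage and dendritic cell genes 12 passed, 2 were higher and 1 lower, the complement gene C1qb being the most abundant at 112 and 179 RPKM, C1qa (80.8 and 169) and the dendritic cell factor Batf3 (1.47 and 4.15) the higher ones and the scavenger receptor Cd163 the lower one at 1.59 and 0.228. Of 10 genes shared by leukocytes 1 was higher, Cd52, at 43.9 and 159 RPKM, 0 were lower and the median was 0.24. Of 9 epithelial genes 3 were lower, among them Cdh1 at 137 and 44.9 RPKM and Krt20 at 275 and 123, with Krt8 the most abundant at 4237 and 2514, and of 8 smooth muscle genes 3 were lower, among them Myh11 at 178 and 61.0 and Synm at 18.3 and 6.41, with Tagln the most abundant at 558 and 597 and 0 higher in either list. Length adjustment ended every such call in the B cell, macrophage and dendritic cell, shared leukocyte and smooth muscle lists, and left 4 epithelial genes lower.

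Of 15 entries for genes beside or overlapping the 9 on their chromosomes, 5 stood in the same direction as their neighbour among the 9, 9 in the other and 1 was listed at 0 in both pools. These directions are without length adjustment, which turned some of them, such as that of Pou2f1 from -0.53 to 0.08 on the log2 scale. Ube4a at -0.46, Tmem131 at -0.86 and Rmnd5a at -0.53 stayed lower after it. Ube4a, beside Cd3g, stood at 5.96 and 2.60 RPKM, lower where Cd3g was higher, and Mpzl2, beyond Cd3e, at 16.8 and 14.1. Mpzl2 was counted in the other direction only by the sign of Cd3e, whose level was the same in both pools within counting error. Tmem131, on the far side of Zap70, stood at 19.1 and 6.50 RPKM, lower where Zap70 was higher. Lag3, an inhibitory receptor that neighbours Cd4, stood at 0.659 and 1.08 RPKM. On either side of Lck the neighbours were higher like it, Hdac1 at 21.8 and 38.1 RPKM and Fam167b at 0.430 and 1.60. After length adjustment Hdac1 stood at 0.56 on the log2 scale and Fam167b at -0.09. Rmnd5a, beside Cd8a, was lower like it, at 10.3 and 4.54 RPKM, and Creg1, beside Cd247, was higher like it, at 21.8 and 26.9.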

How the data were processed

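RPKM values for 1 column per pool, listed by gene symbol, were deposited by the authors, per the file headers. GRCh37, the build in the submitters' processing notes, is human, whereas the symbols are of mouse. The sources used here give no aligner, counter or gene lengths, and the labels name both Proton and Illumina sequencing, so the platform is uncertain.

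Read totals were computed from short one-exon RNA genes of known RefSeq length: for genes with 1 read, RPKM times length is constant. For each listed gene, whole lengths from 150 to 12000 bases, within 1.5-fold of a coding GENCODE M21 transcript, were searched for one that gave whole reads, within 0.0002, in both pools. The one nearest the longest coding transcript was kept. It was found for 8 of the 9 genes and for 95 of 168 listed genes; for Cd3e 1 other length also gave whole reads. Elsewhere the longest coding transcript was used and reads are approximate. Intervals of ratios are exact (Clopper-Pearson) binomial and those of levels exact Poisson, both at 95%. Folds are ratios of RPKM without the pseudocount of 1.

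Differences between pools are described with no test, beside the share of all genes past 2-fold. The length adjustment subtracted the median of 20 length bins of mRNA genes and added their overall median. It took the longest coding GENCODE transcript of each gene, or the longest of any kind where none is coding, and not the length found from whole reads. Genes were named by rule: the 9 genes, and of each further list the most abundant, up to 2 in each direction past 2-fold and those listed at 0; other genes (Trac, Trdc, Tcrg-C1, Tcrg-C4, Cd8b1, Prkcq, Lcp2, Sla2, Dok1, Pou2f1, the cell markers and the chromosomal neighbours) were added after their values were seen. The values of some listed genes are not reported here. The 9 genes and the 12 further lists were chosen with earlier results of these data known. Of the listed symbols, Adgre1 was found under the older symbol Emr1 and Tcrg-C2 was not found. Steps were tested on simulated data. Python 3.11.15, pandas 2.3.3, numpy 2.4.6 and scipy 1.17.1 were used.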

Additional observations from a re-analysis of the deposited data

How the results depend on the processing

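With 1 pool per group, no replicate could be left out. No paired analysis was possible because each group had 1 library and the labels give no replicate numbers. Over the 10 alternatives, 0 of the receptor genes counted were lower beyond the fold threshold in each. Cd8a, with the widest difference downward, was counted only where the filter was left out, so this count says little about lower genes. Zap70 and Cd3d were past 2-fold higher under every pseudocount, scaling and length setting tried, with log2 values of 2.09 to 3.15 and 1.03 to 2.09. The lowest value of Cd3d came from the length adjustment at 1617 bases. At 1330 bases, the length its reads point to, it would fall under 2-fold. Cd8a, outside the filter, ranged from -1.53 to -0.51. The count of 3 genes at least 2-fold higher became 5 with a pseudocount of 0.1 RPKM, where 18.2% of all genes passed, 5 with a 1.5-fold threshold and 1 with a 4-fold threshold. Their median of 0.79 became 1.17 with a pseudocount of 0.1, 0.52 at equal sums and 1.40 with a filter at 5 RPKM, which left 3 of the 9 genes. Of the other pathway genes, 7 higher and 4 lower became 13 and 9 at 1.5-fold and 0 and 1 at 4-fold. Over all genes the shares were 25.7% and 24.6% at 1.5-fold, and 2.02% and 1.08% at 4-fold. At equal sums 3 were higher and 7 lower, against 7.31% and 19.1% of all genes. After length adjustment 4 were higher and 2 lower, against 5.12% and 11.0%. With a pseudocount of 0.1, 9 were lower, against 17.3%. Cd3e ranged from -0.51 to 0.03 and Lat from -0.12 to 0.73, so that the sign of both depended on the setting. The -0.12 of Lat includes the overall mRNA median of -0.17 that the length adjustment added back. Depth limits Cd8a and Cd3e most, with 27 and 48 reads in the adenoma pool, and 3 reads of Cd8a there would be 0.0289 RPKM.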
